A study of Sorghum bicolor with 6 samples.

Results

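Among the 34129 gene models measured in sorghum leaves, 171 were well expressed in empty vector plants and at least 4 times lower in plants overexpressing SbGhd7. These 171 genes are described here. Each had a mean of 50 to 1000 CPM (the deposited value per 1000000 counts of its library) in the empty vector leaves and a mean of 1 CPM or more in the SbGhd7 overexpression (SbGhd7 OE) leaves. The empty vector mean was at least 4 times the SbGhd7 OE mean, and every SbGhd7 OE library lay below every empty vector library. The members were thus chosen by their own values in this comparison, so their fold differences describe the choice, and passing a test of the same contrast is no evidence about them.

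The samples were leaf RNA of 4-week-old Sorghum bicolor, with 3 libraries from plants carrying the empty vector and 3 libraries from SbGhd7 OE plants. The labels name no other treatment for either group. They do not give the promoter of the transgene, the number of transformation events, whether plants were pooled, the day length or the hour of harvest. Nor do they state if replicates were separate plants, so p-values here reflect differences among libraries that could be technical.

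SbGhd7 is a CCT-domain protein of the photoperiod pathway that delays flowering in long days, and it lowers transcripts of the flowering activator EHD1 and of florigen genes. In a leaf, the level of a transcript is set by its synthesis and its decay, so a strongly lower level can be reached directly through a repressor at the gene or indirectly through other regulators. Sorghum leaves are those of a C4 grass, in which mesophyll and bundle sheath cells divide the work of photosynthesis. In bulk leaf RNA, fewer cells of a type and less RNA per cell cannot be told apart.

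The gene models are known here by identifier alone, because neither the deposited files nor the RefSeq table used here pairs these identifiers with names or protein descriptions. No function is therefore given for any member, and the leaf label could not be set against leaf markers. Sequences of the members are not printed. The identifiers are those of the files without their version ending, and they carry the chromosome and a number that rises along it.

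Library totals lay between 27844391 and 35830080, and between 23178 and 23956 gene models had a value above 0. SbGhd7, matched to Sobic.006G004400 from general knowledge of sorghum genes, stood at 0.977 to 1.99 CPM in the empty vector libraries and at 335.3 to 731.5 CPM in the SbGhd7 OE libraries. The groups differed widely: of 20820 genes tested with edgeR's quasi-likelihood test, 53.3% passed an adjusted p of 0.05, with 5829 higher and 5258 lower in SbGhd7 OE. Empty vector replicates 1 and 2 were the closest pair, differing by a median of 1.05-fold over the members, against 1.17-fold to 1.37-fold for the other pairs of one group.

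Of the 3924 gene models at 50 to 1000 CPM in the empty vector leaves, the members were 4.36%. At this level 180 gene models had an empty vector mean at least 4 times the SbGhd7 OE mean. Of these, 1 was left out because its SbGhd7 OE mean was below 1 CPM, and 8 because their libraries overlapped between the groups. At the same level 45 gene models had an SbGhd7 OE mean at least 4 times the empty vector mean. A window set on the empty vector level leaves out genes that rose from a low level, and the mirrored rule, with the groups exchanged, found 289 gene models. Over all tested genes, 4.28% had an empty vector mean at least 4 times the SbGhd7 OE mean.

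**Figure D1:**
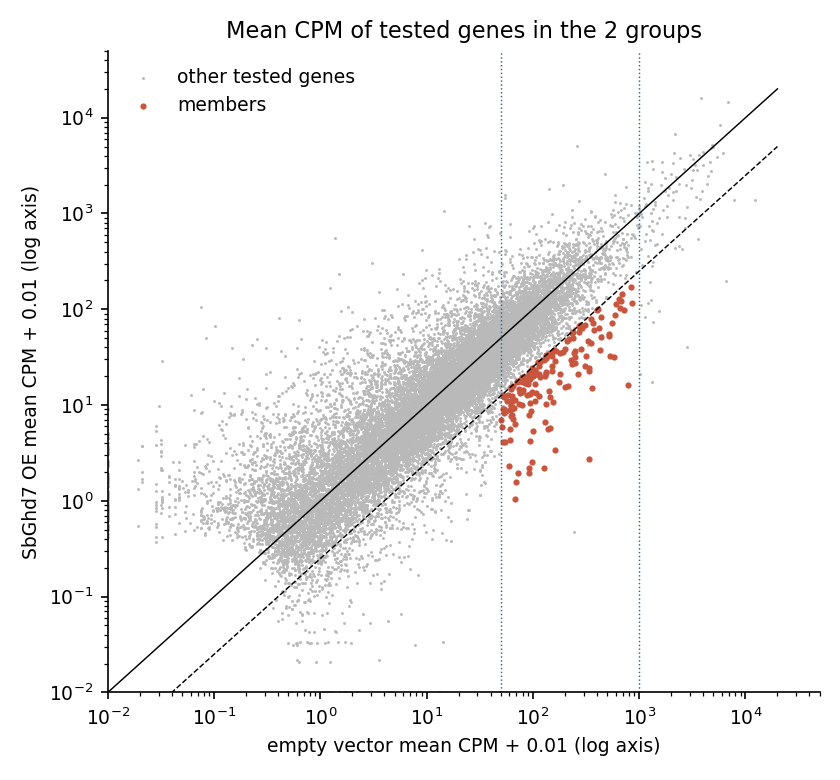
Mean CPM in the empty vector libraries (x axis) against mean CPM in the SbGhd7 OE libraries (y axis), both with 0.01 added and on log axes, for all tested genes (grey) and the 171 members (red). The solid line marks equal levels, the dashed line a 4-fold difference and the dotted lines the limits of 50 and 1000 CPM, so the members fill the region under the dashed line between the dotted lines by construction.

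All 171 members passed edgeR's test towards lower values, where 25.3% of all tested genes and 39.6% of those at 50 to 1000 CPM were called lower. No SbGhd7 OE library overlapped an empty vector library for any member, by the rule, while this held downwards for 34.3% of all tested genes and for 47.8% at the same empty vector level. Because the rule used this contrast, nothing is read from either count. The fitted log2 fold changes (SbGhd7 OE over empty vector) ran from -6.89 to -1.93 with a median of -2.52, beside a median of -0.0042 over all tested genes and -0.14 over the other genes at this level. Their standard errors (SE) had a median of 0.20 and reached 1.14.

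As a group the members took up 3.31%, 3.33% and 3.21% of all counts in empty vector replicates 1, 2 and 3. In SbGhd7 OE replicates 1, 2 and 3 they took up 0.541%, 0.483% and 0.472%. The summed level was 32817 ± 659 CPM in the empty vector leaves and 4985 ± 368 CPM in the SbGhd7 OE leaves (SD, n = 3 each). The 10 members with the most counts in the empty vector leaves held 21.5% of the empty vector sum. The limit of 1000 CPM per member bounds this share, and their share of the loss was not computed. SbGhd7 itself stood at 600.1, 335.3 and 731.5 CPM in SbGhd7 OE replicates 1, 2 and 3. The replicate with the least SbGhd7 was thus not the one with the highest summed level of the members, which was replicate 1. With 3 libraries, a relation between these levels was not tested, and none is read from this order.

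Most members lay close to the limit of the rule, with a tail of far lower genes. The empty vector mean was 4 to under 8 times the SbGhd7 OE mean for 120 members, 8 to under 16 times for 32, 16 to under 32 times for 9 and 32 times or more for 10. The median ratio was 6.01, with quartiles of 4.56 and 9.12. The lowest empty vector value was at least 2 times the highest SbGhd7 OE value for 169 members and at least 4 times for 87. Few members were near silence: 135 kept a mean of 10 CPM or more in the SbGhd7 OE leaves, 28 kept 50 CPM or more, and 14 were under 5 CPM. The lowest count of any member was 21 in an SbGhd7 OE library and 490 in an empty vector library. Depth therefore limits no member's direction, although a deposited value may not stand for 1 fragment. The size of the ratio showed little relation to the empty vector CPM across members (Spearman rho 0.072 over 171 genes). This is a description over genes that share the same 6 libraries. The rule limited both quantities and the ratio holds the empty vector mean, so the value is shaped by the choice of members.

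**Figure D2:**
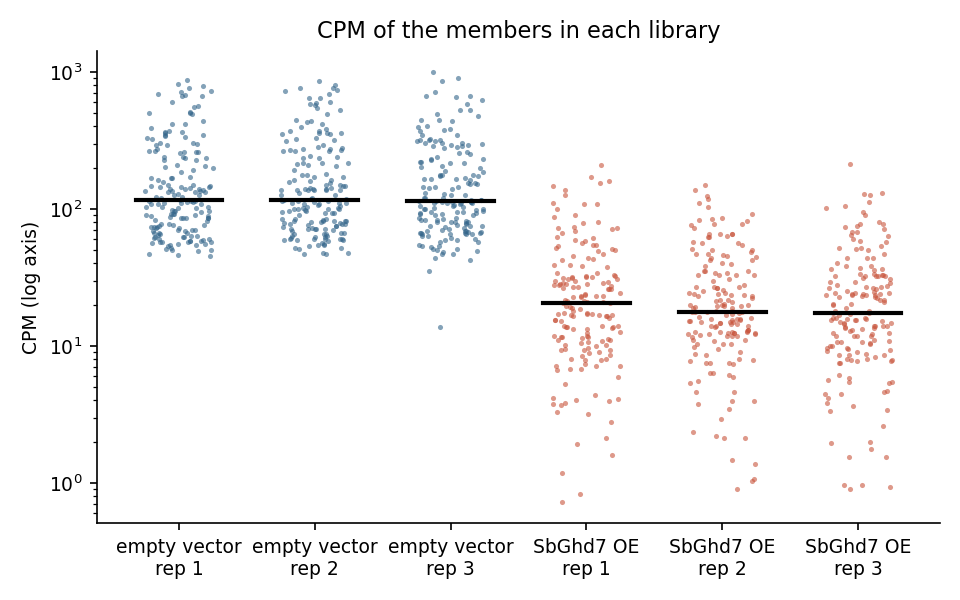
CPM of the 171 members (points, log axis) in each of the 6 libraries, with the median of the members as a bar. The medians were 115.5, 115.7 and 113.6 CPM in empty vector replicates 1, 2 and 3 and 20.6, 17.7 and 17.3 CPM in SbGhd7 OE replicates 1, 2 and 3.

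The member with the largest ratio was Sobic.003G034400. Its CPM was 389.7, 385.6 and 240.9 in empty vector replicates 1, 2 and 3 and 3.30, 2.21 and 2.62 in SbGhd7 OE replicates 1, 2 and 3. The lowest empty vector library was 73.1 times the highest SbGhd7 OE library, and the empty vector mean was 125.1 times the SbGhd7 OE mean (log2 fold change -6.89, SE 0.29, n = 3 each). Empty vector replicate 3 was the low library of its group.

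Sobic.001G269000 was the member nearest to the floor of 1 CPM. It had 78.0, 71.5 and 53.9 CPM in the empty vector leaves against 0.833, 1.36 and 0.934 CPM in SbGhd7 OE, a ratio of means of 65.02 (log2 fold change -5.94, SE 0.23). All 3 SbGhd7 OE libraries were at or near the floor, so a small shift in their level would have moved this gene out of the group.

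Sobic.003G214000 showed steady control values and a spread among the overexpression leaves. The empty vector libraries held 126.2, 131.7 and 121.1 CPM and the SbGhd7 OE libraries 1.60, 3.96 and 0.970 CPM, a ratio of 58.1 (log2 fold change -5.78, SE 0.45). SbGhd7 OE replicate 2 was the high library of its group, and without it the log2 fold change was -6.52.

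Sobic.004G036200 combined a large ratio with one of the highest control values. It stood at 673.05, 688.1 and 995.1 CPM in the empty vector leaves and at 11.8, 7.46 and 29.1 CPM in SbGhd7 OE (log2 fold change -5.54, SE 0.55). Replicate 3 was the high library in both groups, and without SbGhd7 OE replicate 3 the log2 fold change was -6.25. The groups stayed far apart, with the lowest empty vector value 23.1 times the highest SbGhd7 OE value.

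The remaining genes of the 6 largest ratios were alike in size. Sobic.002G287000 had 167.2, 176.1 and 145.02 CPM in the empty vector leaves and 4.06, 4.57 and 1.54 CPM in SbGhd7 OE, a ratio of 47.99. Sobic.001G420900 had 96.2, 97.02 and 79.5 CPM against 2.12, 2.14 and 1.54 CPM, a ratio of 47.02. In both, replicate 3 was the lowest library of each group.

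Apart from Sobic.004G036200, the 6 members with the most counts in the control leaves had ratios of 4.73 to 7.46 and kept 97.5 to 169.3 CPM on average in SbGhd7 OE. A CPM value grows with transcript length, and lengths were not used here, so these values order the genes by their share of reads and not by transcript number. Sobic.002G212000 had 873.6, 859.5 and 855.98 CPM in the empty vector leaves and 161.1, 91.4 and 94.6 CPM in SbGhd7 OE (log2 fold change -2.82, SE 0.26). Its control libraries were within 1.02-fold of each other, and SbGhd7 OE replicate 1 was the highest of its group. Sobic.001G068301 had 813.8, 807.2 and 902.8 CPM against 207.6, 86.5 and 213.7 CPM (log2 fold change -2.23, SE 0.33), with SbGhd7 OE replicate 2 the low library. Sobic.004G345900 had 686.3, 763.4 and 717.4 CPM against 154.3, 57.6 and 80.7 CPM (log2 fold change -2.80, SE 0.37), again with replicate 1 the highest in SbGhd7 OE.

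Sobic.001G098500 and Sobic.006G078500 were the steadiest of these 6 in SbGhd7 OE, each within 1.42-fold. Sobic.001G098500 had 666.8, 731.2 and 671.2 CPM in the empty vector leaves and 171.03, 137.1 and 129.1 CPM in SbGhd7 OE (log2 fold change -2.17, SE 0.17). Sobic.006G078500 had 719.3, 737.8 and 585.5 CPM against 107.98, 149.95 and 105.6 CPM (log2 fold change -2.42, SE 0.18). The limit of 1000 CPM in the rule kept every member out of the 100 gene models with the highest empty vector CPM.

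**Figure D3:**
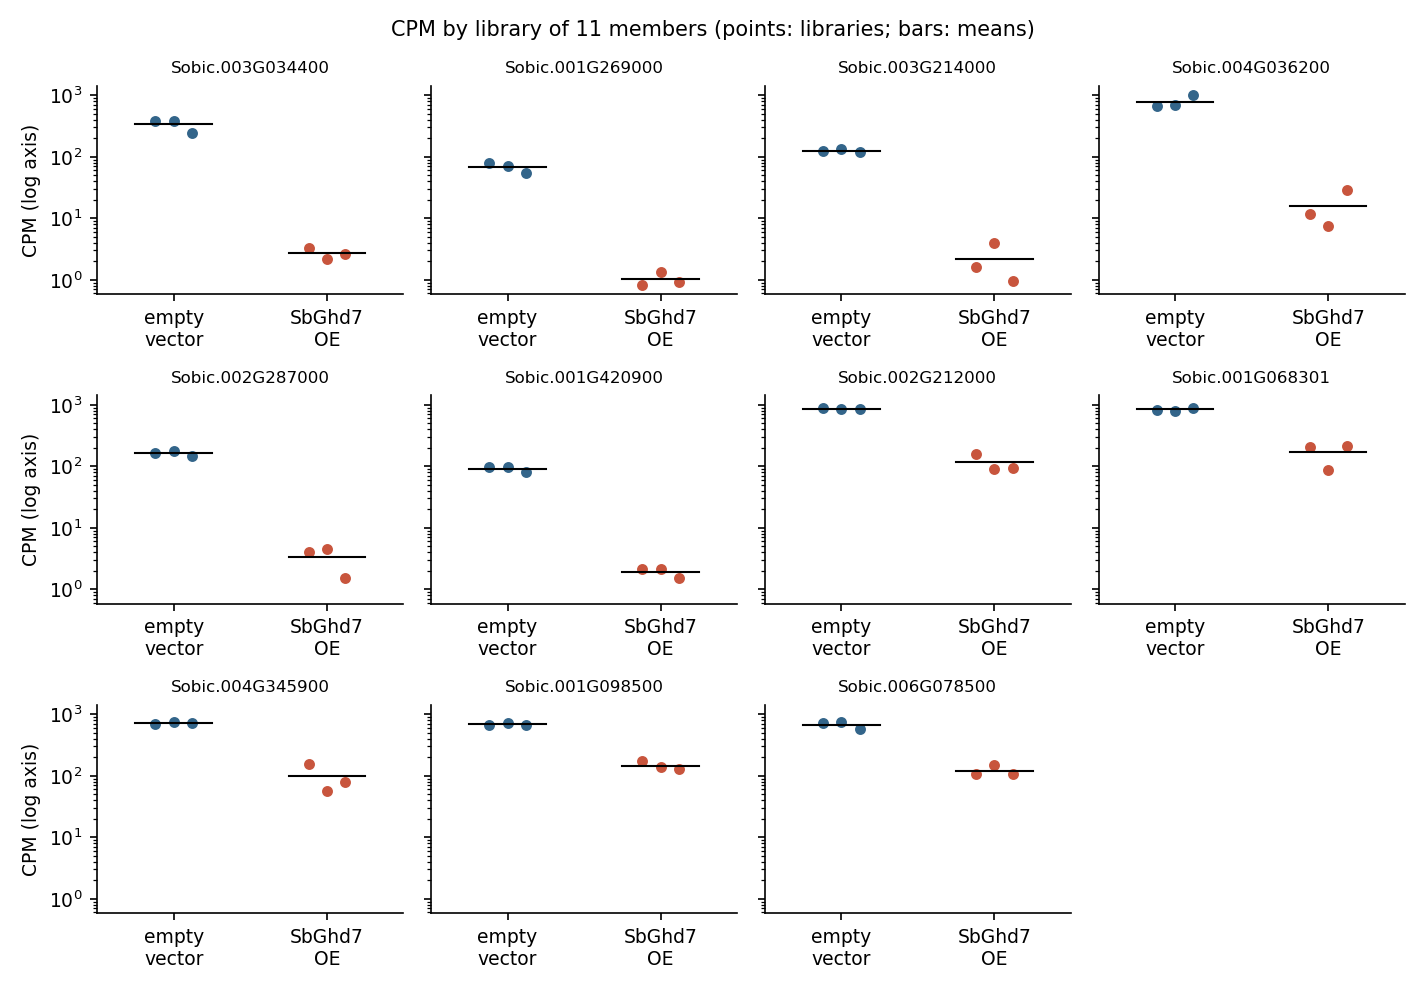
CPM (log axis) of the 6 members with the largest ratio and the 6 with the highest empty vector mean, 11 genes in all because Sobic.004G036200 is in both, with 1 point per library, ordered as replicates 1, 2 and 3, and the group mean as a bar. The SbGhd7 OE points of the first 6 genes lie between 0.833 and 29.1 CPM and those of the other 5 between 57.6 and 213.7 CPM.

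The limit of 4-fold cut through a continuous range. Just inside it were Sobic.003G429800, Sobic.001G457300 and Sobic.004G065200, with ratios of 4.01, 4.002 and 4.0004. The nearest genes outside it that met every other condition were Sobic.009G163900, Sobic.009G033200 and Sobic.003G074700, with ratios of 3.97, 3.96 and 3.96. In all, 93 gene models, these 3 included, met every other condition with a ratio of 3 to under 4.

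In 4 members the libraries of a group spread widely, by 3-fold or more in the empty vector leaves or by 5-fold or more in SbGhd7 OE. Sobic.004G161301 had 122.2, 137.5 and 13.7 CPM in the empty vector leaves and 0.729, 1.46 and 4.45 CPM in SbGhd7 OE. Replicate 3 was the low library among the controls and the high library in SbGhd7 OE, so in that replicate number the groups differed least (log2 fold change -5.32, SE 1.14, over all libraries, and -6.29 without SbGhd7 OE replicate 3). Sobic.008G004800 had 769.5, 764.9 and 218.9 CPM against 39.1, 40.1 and 15.2 CPM, with replicate 3 low in both groups.

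In the other pair the spread was within SbGhd7 OE. Sobic.001G179100 had 556.1, 602.4 and 397.7 CPM in the empty vector leaves and 20.9, 123.9 and 14.5 CPM in SbGhd7 OE. Its log2 fold change was -3.23 (SE 0.86), and -4.77 without the high library, SbGhd7 OE replicate 2. Sobic.009G002500 had 56.4, 50.6 and 46.5 CPM against 13.4, 0.908 and 3.34 CPM, with a log2 fold change of -3.02 (SE 0.89), and of -4.56 without SbGhd7 OE replicate 1, its high library.

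Beyond single genes, the members varied more between libraries of one group than other genes did. Their median coefficient of variation was 10.6% in the empty vector leaves and 23.1% in SbGhd7 OE, against 7.05% and 11.9% for the other 3753 genes at 50 to 1000 CPM in the controls. The same was seen at 1 level in SbGhd7 OE: among genes with a mean of 10 to 50 CPM in SbGhd7 OE, the median was 22.5% for 107 members and 13.3% for 7267 other tested genes. The members were chosen on values of these same libraries, and the part of the choice in their spread was not tested. SbGhd7 OE replicate 2 was most often the lowest of its group, for 41.5% of the members and 43.9% of the other genes at this control level. SbGhd7 OE replicate 3 was the lowest for 39.2% and 27.2%, and replicate 1 the highest for 40.4% and 21.4%. These ranks moved with the scaling: with TMM-scaled CPM, replicate 3 was the lowest for 42.7% and 34.1%, and replicate 1 the highest for 50.3% and 36.8%. Empty vector replicate 3 was the outermost control in both sets, highest for 48.0% and lowest for 44.4% of the members. These are counts over genes that share the same libraries, so they describe 3 libraries a group and carry no test.

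The choice of members was then repeated on 4 libraries, leaving out 1 replicate number of both groups, and the chosen genes were read in the pair left out. The libraries of such a pair share only a number, which is not known to mark a true pairing. Without replicate 1, 171 genes were chosen, and in replicate 1 all 171 were higher in the empty vector leaf, 71.3% of them by 4-fold or more. Without replicate 2, 167 genes were chosen, all of them higher in the empty vector leaf of replicate 2 and 73.7% by 4-fold or more. The median log2 ratio of empty vector to SbGhd7 OE (CPM with 0.5 added) was 2.42 and 2.51 in the pairs left out, against 2.58 and 2.61 in the libraries used. Over all genes at the same control level, 4.17% and 4.55% reached 4-fold in those pairs.

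Replicate 3 differed. Of the 172 genes chosen without it, 157 (91.3%) were higher in the empty vector leaf of replicate 3 and 72.1% reached 4-fold, with a median log2 ratio of 2.60 against 2.79 in the libraries used. The other 15 were higher in the SbGhd7 OE leaf of that replicate, by up to 2.07 on the log2 scale. In 13 of them, replicate 3 was both the lowest empty vector library and the highest SbGhd7 OE library. In 12 of the 15, empty vector replicate 3 also lay below SbGhd7 OE replicate 1. For those genes its low value is thus not seen only against the library of the same number. Other ways of setting the left-out libraries together were not tested. None of these 15 could be a member, because the rule asks that every SbGhd7 OE library lie below every empty vector library. Of the 15, 8 are the gene models left out for overlap between the groups. Empty vector replicates 1 and 2 were nearly alike, so leaving out either kept a close likeness of it among the libraries used, and replicate 3 is the more independent reading for the controls.

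**Figure D4:**
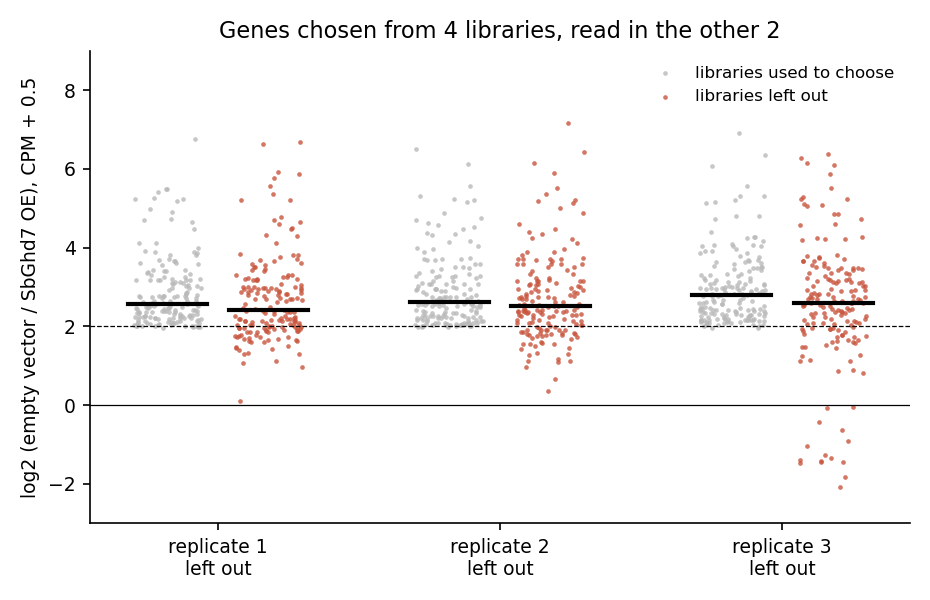
Log2 ratio of empty vector to SbGhd7 OE (CPM with 0.5 added, y axis) for genes chosen by the same rule from 4 libraries, shown in the libraries used (grey) and in the replicate number left out (red), with medians as bars. The solid line marks no difference and the dashed line a 4-fold difference: with replicate 3 left out, 15 genes lie below the solid line.

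The members lay on every chromosome. Chromosome 1 held 31, chromosome 2 held 26 and chromosome 3 held 21, and as a share of the genes at 50 to 1000 CPM in the controls they made up between 3.09% on chromosome 6 and 5.57% on chromosome 10. One member was on a scaffold outside the numbered chromosomes. The closest grouping was on chromosome 9, where 6 members, from Sobic.009G062800 to Sobic.009G069800, fell within 100 consecutive gene models. The highest number in such a stretch was between 2 and 4 on the other chromosomes. This stretch was noticed in the data. Of its 55 tested genes that are not members, 13 were called lower (23.6%), against 25.3% of all tested genes.

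The chromosome 9 genes fell by different amounts. Sobic.009G064000 had 339.96, 355.2 and 312.6 CPM in the empty vector leaves and 23.6, 23.6 and 26.4 CPM in SbGhd7 OE, a ratio of 13.7. Sobic.009G062800 had 236.03, 235.2 and 165.95 CPM against 10.2, 25.5 and 11.9 CPM, a ratio of 13.4. The other 4 had ratios between 4.97 and 5.86.

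Members stood directly side by side in 2 places. On chromosome 2, Sobic.002G173900 had 605.7, 578.7 and 492.8 CPM in the empty vector leaves and 71.9, 77.96 and 67.8 CPM in SbGhd7 OE. Its neighbour Sobic.002G174000 had 225.7, 207.1 and 255.8 CPM against 28.2, 27.01 and 33.1 CPM. Their log2 fold changes were nearly equal, at -2.88 (SE 0.15) and -2.89 (SE 0.14).

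On chromosome 10, Sobic.010G248200 had 496.3, 491.4 and 621.7 CPM in the empty vector leaves and 34.04, 30.8 and 32.9 CPM in SbGhd7 OE. Sobic.010G248301, the next gene model, had 440.96, 433.98 and 437.9 CPM against 56.4, 42.6 and 53.2 CPM. Here the log2 fold changes were apart, at -3.97 (SE 0.16) and -3.03 (SE 0.16). Whether the genes of a pair overlap or are related copies that share reads was not tested, so the separate values are uncertain.

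Gene models next to a member were themselves lower more often than other genes. Of 235 tested genes directly beside a member and not members, 91 (38.7%) were called lower and 42 (17.9%) higher in SbGhd7 OE by edgeR at an adjusted p of 0.05. Beside the other genes at 50 to 1000 CPM in the controls, 26.2% of 4752 tested genes were called lower and 26.5% higher. The median log2 fold change was -0.31 beside members and -0.042 beside the others. The neighbours were taken by position and not by their own values, but they are not independent of the members or of each other, and no test was made of the difference in shares.

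The share fell with distance. At 2 gene models from a member 31.0% of 210 tested genes were called lower, and at 3 gene models 25.8% of 209, close to the 25.3% of all tested genes. From 2 to 10 gene models away the share varied between 22.2% and 33.9%, the highest of these at 9 gene models, so single distances carry a wide scatter. Around the other genes at the same control level it stayed between 23.4% and 26.2% at all 10 distances.

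**Figure D5:**
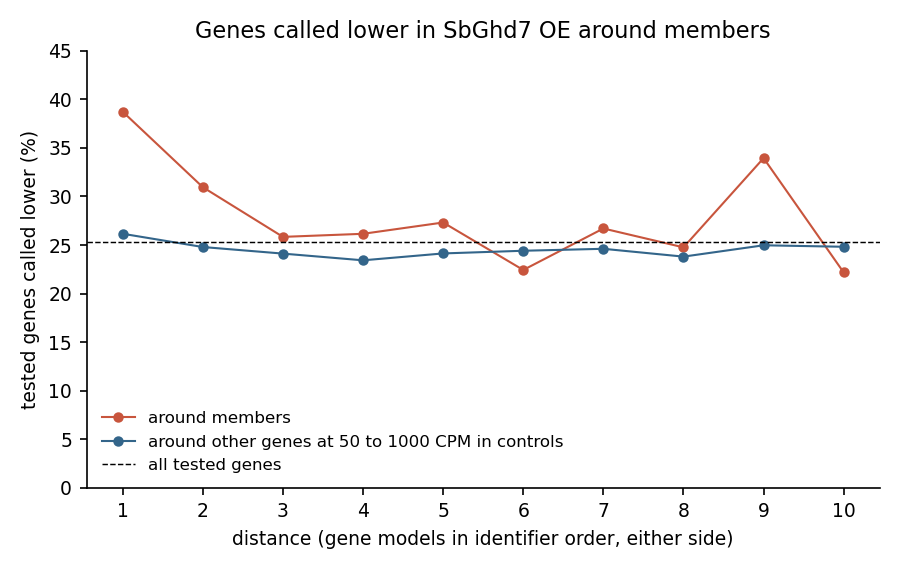
Percentage of tested genes called lower in SbGhd7 OE (edgeR, adjusted p under 0.05, y axis) by distance in gene models (x axis) from a member (red) or from another gene at 50 to 1000 CPM in the empty vector leaves (blue), members left out. The red line starts at 38.7% for direct neighbours and is at 25.8% by the third gene model, while the dashed line marks 25.3% for all tested genes.

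Direct neighbours with an empty vector mean at least 4 times the SbGhd7 OE mean numbered 34 of 235 (14.5%), against 4.28% of all tested genes. The 4.28% includes the members, which meet this limit by the rule, and it is not matched for level. Most of them were low: in 25 of the 34 the empty vector CPM was under 10% of that of the member beside it, with a median of 2.46%. Without knowledge of the strand, reads of a member that run past its end or lie on the opposite strand cannot be told apart from reads of such a neighbour. The part of such reads in the neighbours' values was not tested. By level, 40 of 80 neighbours at 10 to 50 CPM in the controls were called lower, against 29.9% of all genes at that level that are not members. At 50 CPM or more, 18 of 43 (41.9%) were called lower, near the 37.1% of all such genes. At 1 to 10 CPM, 27 of 79 neighbours (34.2%) were called lower, against 19.8% of all such genes. Under 1 CPM, 6 of 33 (18.2%) were called lower, against 4.80%.

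Single neighbours make the range plain. Sobic.007G157700, beside the member Sobic.007G157800, had 25.2, 20.3 and 24.3 CPM in the empty vector leaves and 0.937, 1.46 and 1.08 CPM in SbGhd7 OE (log2 fold change -4.25, SE 0.20). The member itself stood at 59.97 ± 8.29 CPM in the empty vector leaves and at 2.31 ± 1.43 CPM in SbGhd7 OE (SD, n = 3 each). On both sides of the member Sobic.005G130200 the neighbour was almost silent in SbGhd7 OE: Sobic.005G130100 had 4.59, 3.84 and 12.8 CPM in the empty vector leaves and no count in SbGhd7 OE, and Sobic.005G130400 had 4.89, 6.19 and 12.03 CPM against 0, 0.065 and 0 CPM. In these neighbours empty vector replicate 3 was the highest library, and in the member it was so by less, with 86.5, 81.2 and 94.9 CPM. These neighbours were picked after their values were seen.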

How the data were processed

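The authors deposited 1 file per library with 1 whole number per gene model, treated here as estimated counts with no scaling between libraries, per the file headers and values. Per the submitters' processing notes, HISAT2 (2.2.1), StringTie (2.2.1) and DESeq2 (2.11.40.7) were used. What each tool did, the genome build, the strand setting and any filter: not given in the sources used here. In every library 2.91 to 3.57 times as many genes held the value 2 as the value 1, so a value need not be 1 fragment, and rounding changed none.

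CPM was computed from column totals. Genes passing filterByExpr (20820 of 26611 with a count) were tested with edgeR 4.0.16 in R 4.3.3 (TMM, robust quasi-likelihood F-test, group as the only term, Benjamini-Hochberg over all genes). SE is the log2 fold change divided by the square root of F. In simulated data for this comparison (20533 genes tested, 197 of them changed), 46.0% of 2-fold and 76.3% of 4-fold changes were recovered. In the real data 53.3% of tested genes were called, so the recovery there can differ.

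Members and lists were chosen with earlier results of these data known. Named members were the 6 with the largest ratio, the 6 with the highest control mean, 3 on each side of the 4-fold limit and adjacent members; others were named after their values were seen. Lists by protein description could not be built, because the RefSeq table used here (32945 genes) matched 0 identifiers. The median chi-square per gene of empty vector replicates 1 and 2 was 1.93, and 0.967 with values halved. The other pairs of one group had 4.02 to 7.04 before halving. These values cannot show whether replicates 1 and 2 came from separate plants. They were kept as separate libraries, and a fit with the 2 summed was also run. Alternatives were other scalings, no filter, DESeq2 1.42.0, a replicate block, halved values and leaving out each library.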

Additional observations from a re-analysis of the deposited data

How the results depend on the processing

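The number of members, 171, followed the limits of the rule: a fold limit of 3 gave 264, a fold limit of 6 gave 86 and a lower control limit of 100 CPM gave 98. Scaling by TMM gave 146 members, 145 of them shared, and DESeq2 size factors 144, 143 of them shared. The median log2 fold change of all genes was -0.074 by library size alone and -0.0042 by TMM. Leaving out 1 library gave 163 to 179 members, of which 150 to 161 were among the 171. Members called lower numbered 167 to 171 without 1 library and 168 to 171 under the other settings. The count of genes called was 8850 to 10722 without 1 library and 9066 to 11515 otherwise. Direct neighbours called lower numbered 77 to 94 without 1 library and 81 to 97 otherwise. All 18 named members kept their direction and call in the 11 alternatives run for each. The rule had already set that direction, so nothing is read from this or from the counts of members called lower. Same-numbered libraries did not deviate together (correlations of 0.0055, -0.055 and -0.11), so the numbers were not taken as pairs. With the replicate number as a block, 9848 genes were called, 4605 of them lower, with 170 members and 84 direct neighbours among these. Summing empty vector replicates 1 and 2, and all settings for the neighbours, were added after seeing the data.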

Other observations

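The 8 gene models that met the level and fold conditions but overlapped between the groups shared 1 order of the 6 libraries. In all 8, empty vector replicate 2 was highest, followed by empty vector replicate 1, SbGhd7 OE replicates 3 and 1, empty vector replicate 3 and SbGhd7 OE replicate 2. Sobic.003G172300, for example, had 494.1, 806.8 and 42.3 CPM in empty vector replicates 1, 2 and 3 and 69.3, 5.61 and 87.2 CPM in SbGhd7 OE replicates 1, 2 and 3. Sobic.001G276500, on another chromosome, had 137.5, 250.5 and 13.3 CPM against 25.2, 5.06 and 37.5 CPM. Empty vector replicate 2 was between 14.03 and 27.8 times empty vector replicate 3 in these 8 genes, so the difference within the controls was larger than the 4-fold limit between the groups.

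Over all tested genes, 60 (0.288%) had this library order, and in 36 of them empty vector replicate 2 was at least 10 times SbGhd7 OE replicate 2. Of the 36, 17 were on chromosome 3, which held 14.5% of the tested genes. Most of these 17 had close identifiers, from Sobic.003G168600 to Sobic.003G169400 and from Sobic.003G171950 to Sobic.003G173266. They are thus not a count of scattered genes, and whether they share reads was not tested. A member could not have this order, since it puts SbGhd7 OE libraries above an empty vector library. The genes were picked after their values were seen, their identifiers are not paired with names, and what sets them apart was not tested.

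One gene model at 50 to 1000 CPM in the controls fell too far to be a member. Sobic.004G309000 had 294.7, 297.3 and 139.2 CPM in the empty vector leaves and 0.104, 0.941 and 0.359 CPM in SbGhd7 OE.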
